A study of Mus musculus with 12 samples.

Results

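The nuclear-encoded genes of the mitochondrial respiratory chain were taken by symbol from a table of raw read counts: every symbol that starts with Nduf, Uqcr, Atp5, with Sdh followed by a, b, c or d, or with Cox followed by 4, 5, 6, 7 or 8. Of 25897 symbols in the table, 96 met this rule, and none was dropped as a pseudogene. They comprise 36 subunits of complex I, 8 complex I assembly factors, 4 subunits of complex II, 4 complex II assembly factors that the wording of the rule also takes in, 8 subunits of complex III, 20 genes of complex IV and 16 of ATP synthase. The rule uses names alone and no measured value.

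The RNA came from mouse embryonic stem cells of the E14tg2a line (strain 129SV) with a cRAF-ERT2 construct, a fusion of the kinase cRAF with a hormone-binding domain through which 4OHT (4-hydroxytamoxifen) activates ERK signalling. Cells had 250 nM 4OHT for 1, 2 or 4 h or were left untreated, and each group held the same clones a, b and c, which gave 12 libraries in 4 groups of 3. All groups, the untreated one included, carried the construct, had grown with 2 µM Chir99021 and then spent 24 h in LIF, serum and the FGF receptor inhibitor PD173074 at 250 nM; ethynyl uridine (5 mM) was added 15 min before the RNA was taken. No arm with 4OHT but without the construct is among these samples, so responses to the ligand and to the kinase cannot be told apart. The treatment note of the samples speaks of 0 h and 2 h, whereas the titles and the design text give all 4 times. Total RNA was depleted of ribosomal RNA before sequencing. Nothing says that clones were cultured apart at each time, so p-values measure the spread between these libraries.

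Complex I passes electrons from NADH, and complex II from succinate, to ubiquinone; complex III passes them on to cytochrome c, and complex IV to oxygen. Complexes I, III and IV pump protons across the inner mitochondrial membrane, and ATP synthase uses the gradient to make ATP. Complex II is the only one of them encoded wholly in the nucleus, while the others join nuclear-encoded proteins to a few subunits made from mitochondrial DNA. The transcription factors NRF1, GABP (an ETS factor) and YY1 are known to bind the promoters of many of these nuclear genes. Mouse embryonic stem cells in serum and LIF use respiration and glycolysis together.

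Promoters are shown for 4 members, a pair that was higher and a pair that was lower at 4 h of 4OHT. In each pair 1 promoter holds the letters GCGCATGC, searched for here as NRF1 letters, and 1 holds no exact match to them. Each promoter runs from 250 bases before to 50 bases after the annotated start and is credited to RefSeq (GRCm38.p6). They are Cox6a1 (chr5:115348909-115349208, minus strand), Ndufb6 (chr4:40279372-40279671, minus strand), Ndufaf5 (chr2:140170396-140170695, plus strand) and Sdhaf4 (chr1:24005591-24005890, minus strand), all written 5′ to 3′ along the gene. Capitals mark matches to GCGCATGC on either strand, which overlap here since these letters are nearly their own reverse complement.
Cox6a1: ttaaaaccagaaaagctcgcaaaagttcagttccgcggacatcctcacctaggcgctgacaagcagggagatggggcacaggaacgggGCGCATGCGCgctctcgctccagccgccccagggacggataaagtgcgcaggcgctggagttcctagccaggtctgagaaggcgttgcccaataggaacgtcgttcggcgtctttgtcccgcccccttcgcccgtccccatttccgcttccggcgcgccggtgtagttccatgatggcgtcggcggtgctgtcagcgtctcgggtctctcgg
Ndufb6: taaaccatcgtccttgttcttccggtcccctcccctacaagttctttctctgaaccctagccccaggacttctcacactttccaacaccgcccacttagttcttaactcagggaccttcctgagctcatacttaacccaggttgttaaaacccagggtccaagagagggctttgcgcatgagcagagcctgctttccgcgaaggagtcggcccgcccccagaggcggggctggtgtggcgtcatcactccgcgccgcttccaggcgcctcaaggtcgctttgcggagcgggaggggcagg
Ndufaf5: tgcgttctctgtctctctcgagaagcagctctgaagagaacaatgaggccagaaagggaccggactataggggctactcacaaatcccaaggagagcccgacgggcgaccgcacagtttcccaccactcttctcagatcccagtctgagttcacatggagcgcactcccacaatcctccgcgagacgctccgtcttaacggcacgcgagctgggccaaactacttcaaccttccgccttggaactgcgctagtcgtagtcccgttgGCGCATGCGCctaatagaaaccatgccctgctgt
Sdhaf4: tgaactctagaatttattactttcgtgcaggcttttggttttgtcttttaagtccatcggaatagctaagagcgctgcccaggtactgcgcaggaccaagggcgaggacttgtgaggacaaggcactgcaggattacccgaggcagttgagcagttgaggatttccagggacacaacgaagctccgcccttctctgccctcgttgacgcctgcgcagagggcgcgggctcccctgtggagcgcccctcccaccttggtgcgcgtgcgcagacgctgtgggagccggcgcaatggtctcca
The match begins at base 89 of the Cox6a1 window, upstream of the start, and at base 267 of the Ndufaf5 window, downstream of it. The other 2 windows hold no exact match to these letters, nor to the ETS letters CCGGAAGT or the YY1 letters AAGATGGC. Only exact letters were searched for, so close variants, such as gcgtgcgc in the Sdhaf4 window, were not counted.

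Of the 96 members, 78 had a promoter in the table and 18 did not. The NRF1 letters, searched on both strands, were found in 12 of the 78 (15.4%), against 3.05% of 27025 symbols with a promoter of the same length and 5.69% of the 10861 of those whose counts were tested. YY1 letters were found in 12.8% of member promoters, against 3.19% of all symbols and 4.85% of tested ones. ETS letters were found in 6.41% of member promoters, against 4.31% of all symbols and 8.55% of tested ones. The NRF1 letters stood in 4 of 17 promoters of members higher at 4 h, in 1 of 5 of those lower and in 7 of 54 of the rest. These are descriptions of exact letters in a window, which leave out variants of a site, and do not show binding.

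The cells expressed the embryonic stem cell markers: all 8 (Pou5f1, Sox2, Nanog, Esrrb, Zfp42, Tdgf1, Dppa5a and Utf1) averaged above 1 CPM (read counts scaled to library size), and their sum was 4290 to 5500 CPM. Egr1, Fos, Dusp6 and Spry4, genes that ERK signalling induces, were higher at each treated time in 4 of 4 tests. Markers of other cells were low but moved with time: at 4 h the 6 trophoblast markers summed to 15.8 to 49.9 CPM, against 3.21 to 3.9 CPM in untreated cells, and the 7 feeder fibroblast markers to 11.6 to 26.6 CPM, against 3.39 to 4.26 CPM. On average 2 of the 6 (Cdx2 and Eomes) and 1 of the 7 (Thy1) were above 1 CPM, and none was at 0 in all libraries. Thy1 ranged from 2.9 to 25.2 CPM over the libraries, while no other feeder fibroblast marker exceeded 1.23 CPM in any. Cdx2 reached 32.8 CPM and Eomes 19.1 CPM, and no other trophoblast marker exceeded 0.611 CPM. The 6 primitive endoderm markers summed to 3.56 to 8.77 CPM at 4 h, against 5.18 to 11.1 CPM in untreated cells. Their part in the results below was not tested. Libraries held 24213641 to 31435301 counts, of which the members took 1.18 to 1.27%. In bulk RNA, fewer cells of a type and less RNA per cell cannot be told apart.

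The untreated library of clone a stood apart in base composition. The Spearman correlation between a gene's deviation from its mean level and the GC content of its transcript was -0.439 in that library and -0.247 to 0.182 in the other 11. Every contrast with untreated cells uses this library, and member counts are given below both with it and leaving it out. Libraries also differed widely in Lars2, a gene outside the rule. It had 4990 to 15000 CPM in untreated cells, 13800 to 27500 at 1 h, 1070 to 17800 at 2 h and 876 to 9230 at 4 h. The cause of this difference and its bearing on the results below were not tested.

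Levels per length differed widely between members. In untreated cells the 92 members with a length and at least 1 count had a median of 52.0 CPM per kb of exon. The highest was Atp5b, the catalytic beta subunit of ATP synthase, at 1350 ± 39.6 CPM per kb (SD, n = 3), followed by Atp5a1, its alpha partner, which overlaps Haus1, at 573 ± 29.4, and Uqcrh, the hinge protein of complex III, at 362 ± 98.2 CPM per kb. Among members present in every untreated library, Cox4i2, the hypoxia- and lung-associated form of subunit 4, at 0.727 ± 0.0854 CPM per kb, and Cox8b, a heart and muscle isoform, at 0.449 ± 0.194, were the lowest. Cox8c, the testis form of subunit 8, had 1 count in the 3 untreated libraries together and 7 in the 3 libraries at 4 h. Of the other isoforms with restricted expression, the testis forms Cox7b2 and Cox6b2 had 1.01 ± 0.276 and 20.3 ± 4.48 CPM per kb, and Cox7a1, known from heart and muscle, had 11.1 ± 0.622. Ndufa4l2, a hypoxia-induced relative of Ndufa4, had 8.12 ± 4.15 CPM per kb and overlaps Shmt2.

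Cox4i1, the general form of complex IV subunit 4, Ndufa13, a complex I subunit, and the muscle isoform Cox6a2 were listed at 0 in all 12 libraries. Cells that respire use Cox4i1 and Ndufa13, and each has exons that overlap a gene on the other strand, so a 0 here is not read as a level, and its cause was not tested. All 13 genes of mitochondrial DNA were likewise listed at 0. With Cox8b and Cox8c, which fell below the filter on low counts, 5 members were not tested and 91 were. In all, 34 members, 31 of them tested, have exons that overlap another gene; without a known strand setting their counts are uncertain.

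**Figure D1:**
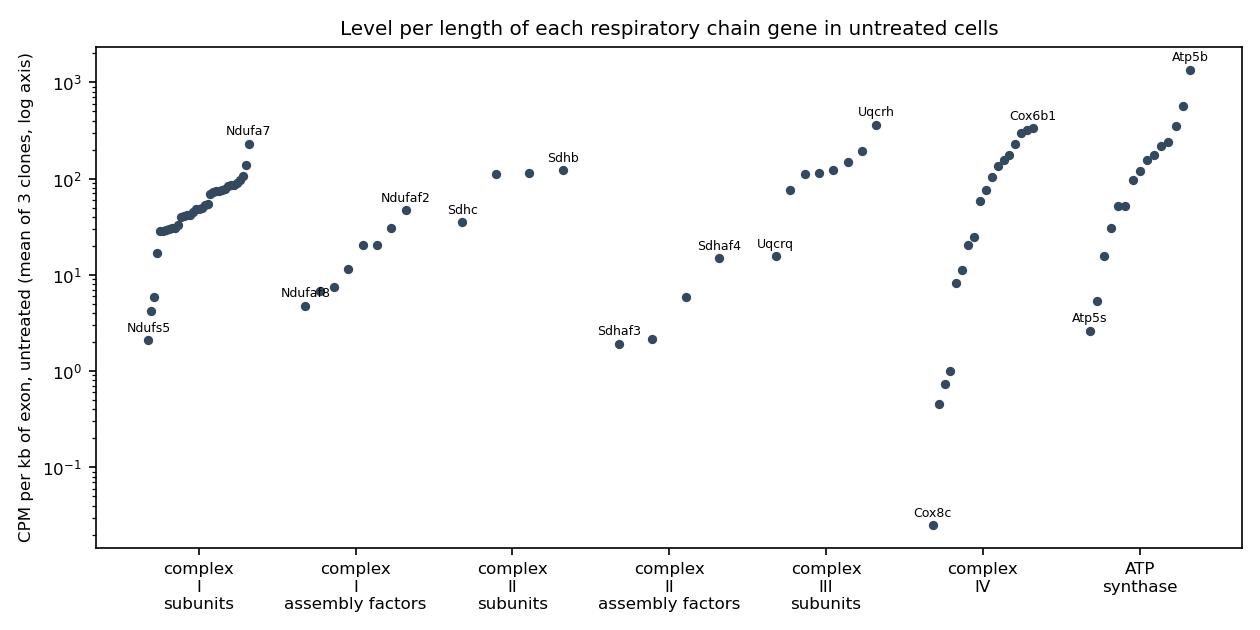
Level of each member in untreated cells, as CPM per kb of exon on a log axis (mean of 3 clones), grouped by complex; points in each group run from lowest to highest, and the ends are named. ATP synthase spans from Atp5s at 2.62 to Atp5b at 1350 CPM per kb, and the assembly factors of complex II stay at or under 14.8.

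After 1 h of 4OHT no member passed the threshold, an adjusted p of 0.05 in edgeR's quasi-likelihood test over all 14185 genes tested. Over all genes 0.0775% were higher and 0% lower. The median log2 change of the members was 0.008, against -0.016 for all genes, and the unadjusted p of 18 members was under 0.05. DESeq2 called 3 members higher and 1 lower, where all genes gave 0.705% and 0.211%, and limma-voom called 0, where all genes gave 0.0423% and 0%. When each library was set against the same clone at another time (a clone block), 10 members were higher and 2 lower, against 5.41% and 1.58% of all genes. Of these 10, 4 are complex III subunits: Uqcrq, Uqcr10, Uqcr11 and Uqcrc1.

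Uqcrq, which encodes a small subunit of complex III at the ubiquinone site, had the smallest adjusted p of all members at 1 h and 4 h. Its level in clones a, b and c was 26.7, 28.2 and 31.1 CPM untreated, 41.1, 40.3 and 39.9 CPM at 1 h, 36.3, 42.3 and 44.4 CPM at 2 h, and 46.1, 48.2 and 49.6 CPM at 4 h. Every treated library lay above every untreated one. The log2 change at 1 h was 0.50 ± 0.09 (SE), with an edgeR adjusted p of 0.131 without the clone block and 0.00491 with it. The gene lies on chromosome 11 (53427922 to 53430831, minus strand, GENCODE M21 on GRCm38).

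The 2 members lower at 1 h with the clone block were Atp5g2, which encodes subunit c of the ATP synthase ring and overlaps Mir688, and Ndufb4, an accessory subunit of complex I. Atp5g2 had 17.8, 16.8 and 16.9 CPM at 1 h, against 21, 23.2 and 22.6 CPM in untreated cells (clones a, b and c), and the groups did not overlap. Its fitted log2 change was -0.38 ± 0.10, with an edgeR adjusted p of 0.28 without the block and 0.0354 with it. By 4 h it had 19.5, 20.3 and 21.5 CPM, which overlapped the untreated range.

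After 2 h, 14 of the 91 tested members were higher and 0 lower, against 9.56% higher and 6.64% lower among all genes (edgeR, no clone block). That is 15.4% of the members. By role, these were 5 of 35 complex I subunits (Ndufa2, Ndufb6, Ndufb8, Ndufb11 and Ndufc2), 1 of 8 complex I assembly factors (Ndufaf6), 2 of 8 complex III subunits (Uqcrq and Uqcr11), 4 of 16 genes of complex IV (Cox5b, Cox6a1, Cox7c and Cox8a) and 2 of 16 of ATP synthase (Atp5d and Atp5j2). No complex II subunit or assembly factor was among them. Of these 14, Ndufa2, Ndufb6, Ndufb8, Ndufb11 and Atp5d have exons overlapping another gene. DESeq2 and limma-voom each called 1 member lower, where all genes gave 9.12% and 7.75%, and 33 members had an unadjusted p under 0.05 in edgeR. The median of the 91 was 0.095, against -0.023 for all genes. With the clone block the count was 31 higher and 5 lower, where all genes gave 20.6% and 20%, and after a correction of each library for GC content and length, chosen after seeing the data, it was 16 higher and 1 lower, where all genes gave 15.1% and 7.07%. With clone a untreated left out, 3 members were higher (3.26%) and 0 lower, and the shares of all genes were down as well, at 4.46% and 2.83%. Without clone a at every time, 18 were higher (19.6%) and 1 lower, where all genes gave 12.6% and 10.1%.

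Ndufaf6, a factor for the early assembly of complex I, had 30.8, 29.4 and 30.9 CPM at 2 h, against 24.2, 19.4 and 21.9 CPM in untreated cells. All 3 clones at 2 h lay above all 3 untreated ones, and at 1 h the level was still 22.7, 21.2 and 20.6 CPM. The log2 change at 2 h was 0.47 ± 0.10 (edgeR adjusted p 0.0133), and the call ended when clone b untreated or clone c at 2 h was left out.

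Cox5b, the zinc-binding subunit of complex IV, showed the same timing at smaller size. It had 59.4, 66.3 and 67.0 CPM at 2 h, against 52.2, 56.4 and 54.4 CPM in untreated cells, with no overlap. At 1 h it had 50.9, 54.5 and 55.0 CPM. The log2 change at 2 h was 0.24 ± 0.07 (edgeR adjusted p 0.0421); 9 of the 12 libraries, left out singly, ended this call.

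Atp5b, the most abundant member per length, did not pass without the block at 2 h. It had 2820, 3150 and 2940 CPM at 2 h, against 2590, 2660 and 2510 CPM in untreated cells, a log2 change of 0.20 ± 0.07 (edgeR adjusted p 0.0683, and 0.0115 with the clone block). It weighs in the sum of all members, which was 12840 ± 485 CPM at 2 h, against 11660 ± 339 CPM in untreated cells (SD, n = 3).

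**Figure D2:**
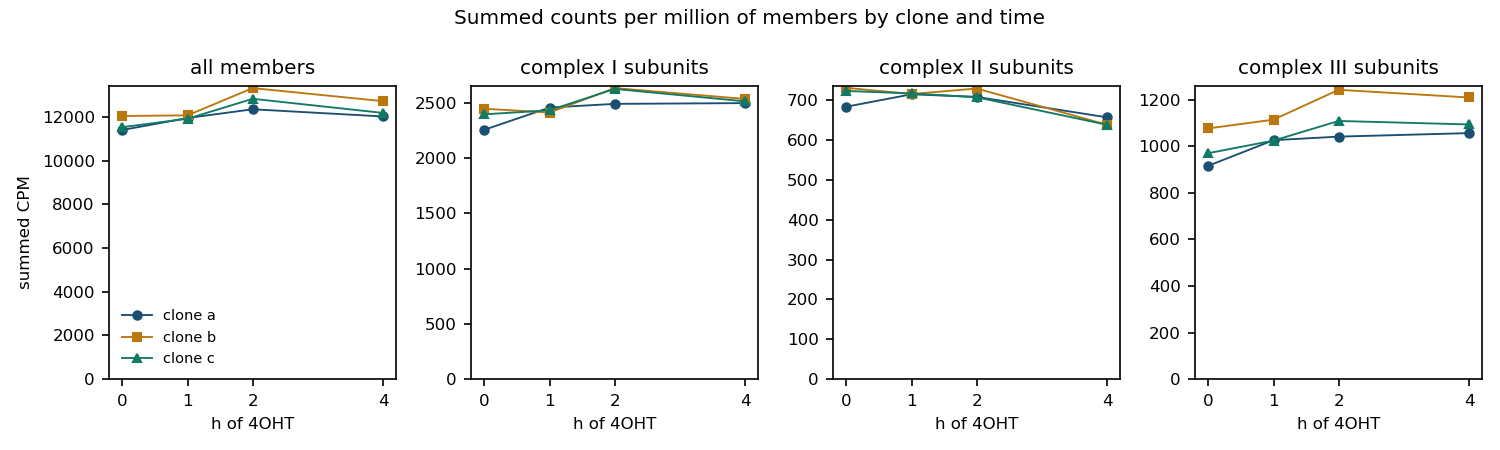
Summed CPM of all 96 members and of the subunits of complexes I, II and III, for clones a, b and c (lines) at 0, 1, 2 and 4 h of 4OHT; the vertical axes start at 0. The sum of complex II subunits was 638.2 to 656.8 CPM at 4 h, under the 683.5 to 730.8 CPM of untreated cells, while the sums of complexes I and III were not lower.

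After 4 h, 20 members were higher and 6 lower, against 18% and 15.1% of all genes (edgeR, no clone block). The 20 are 22.0% of the members, a share near that of all genes, and the 6 are 6.59%. Fitted log2 changes ran from -0.69 to 0.77, with a median of 0.022 against -0.016 for all genes. With the clone block the counts were 26 and 15, against 26.2% and 25.7% of all genes. After the correction for GC content and length they were 9 and 8, against 17.9% and 16.6%. Leaving out clone a untreated, they were 11 and 5, against 14.1% and 11.2% of all genes, and leaving out clone a at every time, 16 and 6, against 19% and 16.8%. The 11 and 16 are 12% and 17.4% of the members tested in those fits, under the shares of all genes. All 20 members called higher were higher in each of the 3 clones, and in 13 of the 20 clone a had the greatest change. These figures come from the libraries that made the calls, so they are no separate check.

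The direction of change moved with base composition. The 20 members called higher at 4 h had a median transcript GC content of 53.65%, the 6 called lower 47.95% and the other 65 members 50.1%. The Spearman correlation between the 4 h change and GC content, a description across genes that share libraries, was 0.34 over the 91 members and 0.16 over 14059 genes. Within clone a it was 0.52 for members and 0.43 for all genes; within clone b, 0.24 and 0.06; within clone c, 0.20 and 0.03. Members also have short transcripts, with a median of 934 bases against 3127 for all tested genes.

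**Figure D3:**
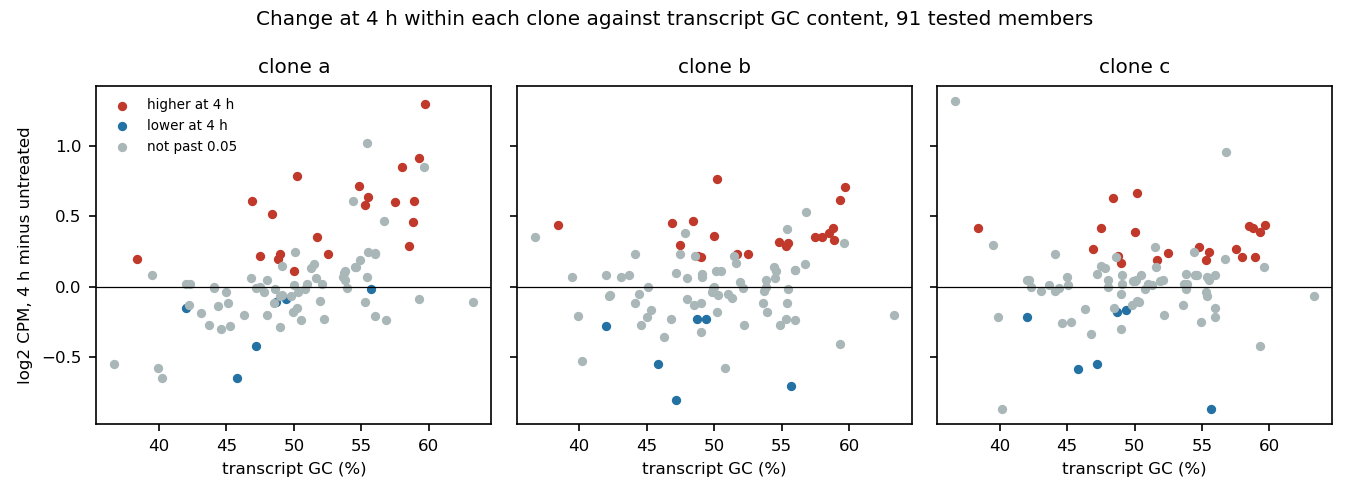
Log2 CPM at 4 h minus untreated for each of the 91 tested members in clones a, b and c, against transcript GC content in percent; colours mark members called higher, called lower or not past the threshold in the fit on all libraries. The Spearman correlation is highest in clone a, at 0.52, against 0.24 in clone b and 0.20 in clone c.

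Complex I, the NADH dehydrogenase, had 10 of 35 tested subunits higher and 1 lower at 4 h, with a median log2 change of 0.052. All genes gave 18% and 15.1%. The 7 core subunits, which carry out the chemistry, had 1 higher (Ndufs8) and 1 lower (Ndufv2). The 28 accessory subunits around them had 9 higher and 0 lower: Ndufa1, Ndufa2, Ndufa7, Ndufa11, Ndufb6, Ndufb7, Ndufb8, Ndufb11 and Ndufc2. Of these, Ndufa2, Ndufa11, Ndufb6, Ndufb8 and Ndufb11 have exons overlapping another gene. With the GC and length correction the complex had 4 subunits higher and 1 lower, against 17.9% and 16.6% of all genes.

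Ndufb7, an accessory subunit on the intermembrane side, had the greatest fitted change. It had 41.3, 46.7 and 43.7 CPM at 4 h, against 16.8, 28.6 and 32.1 CPM in untreated cells. The groups did not overlap, and the change was 1.30 in clone a, 0.71 in clone b and 0.44 in clone c on the log2 scale. The fit gave 0.77 ± 0.20 (edgeR adjusted p 0.0131), and 0.46 after the GC and length correction (adjusted p 0.0177).

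Ndufb6, an accessory subunit of the membrane arm whose exons overlap Smim27, was more even. It had 28.3, 31.9 and 35.1 CPM at 4 h, against 19.7, 22.9 and 22.7 CPM in untreated cells. The clones changed by 0.52, 0.47 and 0.63, and the fit gave 0.54 ± 0.12 (edgeR adjusted p 0.00613), or 0.49 with the GC and length correction (adjusted p 0.0126).

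Ndufs8, the core subunit that holds a pair of iron-sulfur clusters, had 51.6, 53.1 and 54.8 CPM at 4 h, against 31.4, 42.7 and 45.0 CPM in untreated cells. The groups did not overlap (log2 change 0.42 ± 0.12, edgeR adjusted p 0.0199). Ndufv2, the core subunit that takes part in electron entry from NADH, went the other way. It had 136, 128 and 131 CPM at 4 h, against 152, 155 and 152 CPM in untreated cells, again with no overlap. Its log2 change was -0.22 ± 0.06 (edgeR adjusted p 0.0121, and 0.0716 with the GC and length correction).

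Other core subunits did not pass. Ndufs1, which carries the most iron-sulfur clusters and overlaps Eef1b2, had 230, 246 and 220 CPM at 4 h, against 250, 246 and 218 CPM in untreated cells. Ndufv1, the NADH-binding subunit, had 158, 170 and 174 CPM at 4 h, against 114, 152 and 151 CPM in untreated cells. Here the groups did not overlap, but the untreated library of clone a stood well under the rest (log2 change 0.27 ± 0.10, edgeR adjusted p 0.0669 without the clone block and 0.00698 with it).

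The 8 complex I assembly factors, which build the enzyme and are not part of it, had 1 higher (Ndufaf6) and 1 lower (Ndufaf5) at 4 h. Shares of all genes were 18% and 15.1%. Leaving out any single library except clone a untreated ended the 4 h call of Ndufaf6. Ndufaf5 encodes an enzyme that, in human cells, hydroxylates an arginine of NDUFS7 early in assembly. It had 27.1, 19.6 and 25.3 CPM at 4 h, against 36.3, 34.3 and 37.1 CPM in untreated cells, and all treated libraries at all times lay under the untreated ones. The log2 change at 4 h was -0.58 ± 0.12 (edgeR adjusted p 0.00424), and it was also -0.58 with the GC and length correction (adjusted p 0.00373). Its promoter and that of Cox6a1, printed above, were picked so that each direction had 1 with the NRF1 letters. Whether these letters bear on either change was not tested. With the clone block, Ndufaf1 and Ndufaf7 were lower too, with log2 changes of -0.24 and -0.28.

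All 4 complex II subunits had lower mean levels at 4 h, with log2 changes from -0.17 to -0.13, whereas at 1 h and 2 h their changes lay between -0.05 and 0.04. Sdhc and Sdhd passed without the clone block, where 15.1% of all genes were lower. With the block Sdha passed as well, where 25.7% of all genes were lower. Sdhd, a membrane anchor, had 132, 122 and 122 CPM at 4 h, against 140, 143 and 138 CPM in untreated cells (log2 change -0.16 ± 0.06, edgeR adjusted p 0.0417). Sdhc, the other anchor, had 100, 101 and 95.6 CPM at 4 h, against 108, 118 and 108 CPM (log2 change -0.17 ± 0.06, edgeR adjusted p 0.0496). In both genes the groups did not overlap.

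Sdha, the flavoprotein that oxidises succinate, had 299, 291 and 289 CPM at 4 h, against 325, 319 and 321 CPM in untreated cells. The groups did not overlap, yet the log2 change of -0.13 ± 0.05 missed the threshold without the block (edgeR adjusted p 0.0552) and passed with it (0.0129). Sdhb, the iron-sulfur subunit, had 125, 125 and 131 CPM at 4 h, against 110, 151 and 156 CPM in untreated cells. Clone a changed by 0.19 on the log2 scale, clone b by -0.27 and clone c by -0.25, so the groups overlapped. With clone a untreated left out, Sdhb passed (edgeR adjusted p 0.0339), while Sdhc (0.0537) and Sdhd (0.0705) did not. The falls of Sdhc and Sdhd are small, and the calls were lost without 11 and 10 of the 12 libraries when each was left out alone.

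Among the complex II assembly factors, Sdhaf4, a chaperone of flavin-loaded Sdha, was lower at 4 h. It had 6.95, 7.12 and 5.89 CPM at 4 h, against 10.9, 10.5 and 8.93 CPM in untreated cells, with no overlap. The clones changed by -0.65, -0.55 and -0.59, and the fit gave -0.60 ± 0.15 (edgeR adjusted p 0.0109) and -0.65 with the GC and length correction (adjusted p 0.00437). Its exons overlap Gm26524, so the counts are uncertain, and the call was lost when clone c at 4 h was left out. Sdhaf2, which helps attach flavin to Sdha and overlaps Cpsf7, had 41.4, 38.1 and 38.8 CPM at 4 h, against 40.7, 39.7 and 38.9 CPM in untreated cells, and the groups overlapped. Sdhaf3, which protects iron-sulfur clusters of Sdhb, passed only with the clone block, with 6.64, 6.65 and 6.24 CPM at 4 h, against 9.93, 7.68 and 7.27 CPM in untreated cells.

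**Figure D4:**
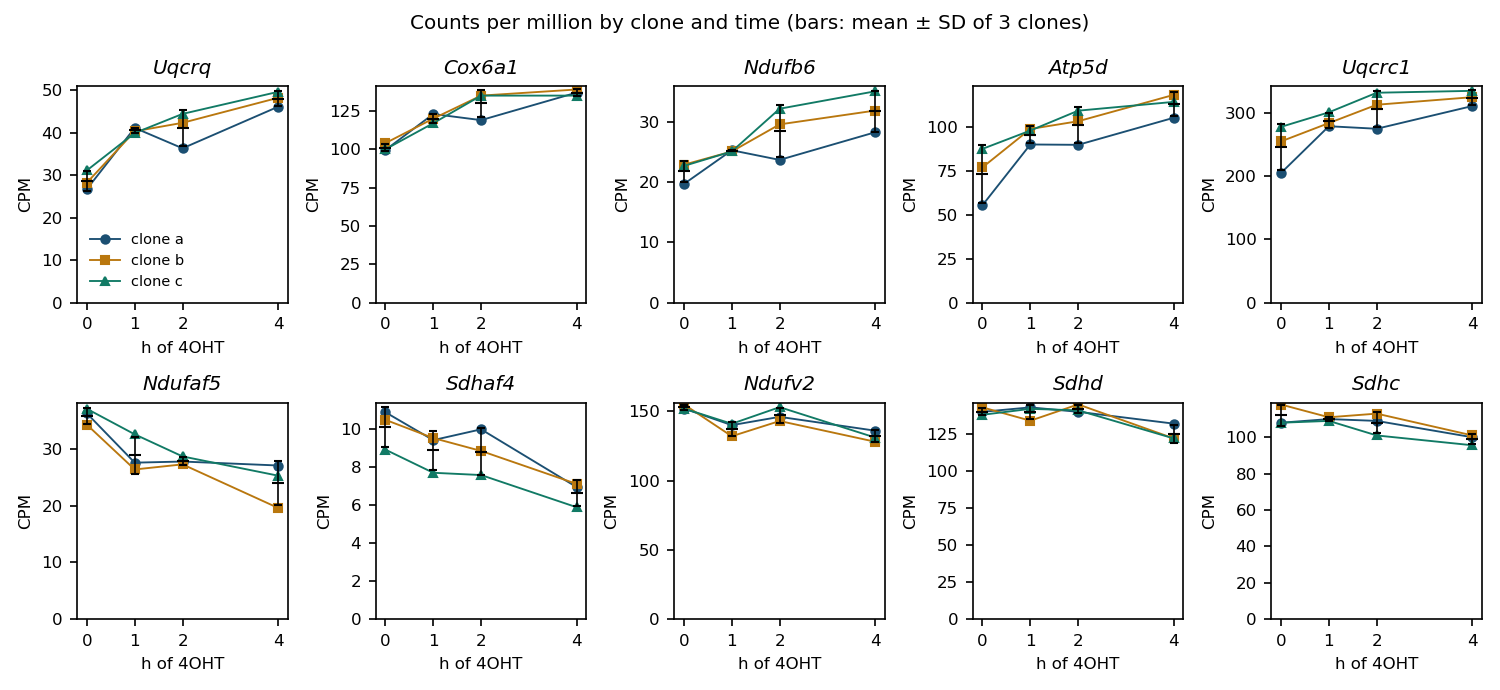
CPM of 10 members in clones a, b and c (coloured lines) at 0, 1, 2 and 4 h of 4OHT, with the mean and SD of the 3 clones as black bars; vertical axes start at 0. The upper row shows members higher at 4 h, among them Uqcrq, with 46.1 to 49.6 CPM at 4 h against 26.7 to 31.1 CPM untreated; the lower row shows members lower at 4 h.

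Complex III had 4 of 8 subunits higher and 0 lower at 4 h, against 18% and 15.1% of all genes, with a median log2 change of 0.257. With the GC and length correction 2 of 8 were higher and 0 lower, against 17.9% and 16.6% of all genes. The corrected median was 0.092. Uqcrq had a change of 0.74 ± 0.09 (edgeR adjusted p 0.000285) at this time, and 0.76 with the GC and length correction (adjusted p 0.000379). Uqcrc1, a core protein of the matrix side, had 311, 325 and 335 CPM at 4 h, against 205, 255 and 278 CPM in untreated cells. The groups did not overlap (log2 change 0.40 ± 0.10, edgeR adjusted p 0.0134), and leaving out clone c at 4 h ended the call. The small subunits Uqcr10 and Uqcr11 changed by 0.39 ± 0.12 and 0.38 ± 0.10 (edgeR adjusted p 0.0234 and 0.0151). With the GC and length correction those of Uqcr10 and Uqcr11 were 0.16 and 0.03, and neither passed (adjusted p 0.131 and 0.799).

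The other 4 subunits did not pass. Uqcrc2, the partner of Uqcrc1, which overlaps Pdzd9, had 194, 207 and 206 CPM at 4 h, against 214, 214 and 207 CPM in untreated cells. Uqcrfs1, the Rieske iron-sulfur protein, had 110, 124 and 112 CPM at 4 h, against 111, 107 and 96.9 CPM in untreated cells. Uqcrh differed by clone: 160, 257 and 159 CPM at 4 h, against 181, 258 and 154 CPM in untreated cells, so clone b held more of it at both times.

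Complex IV had 4 of 16 tested genes higher (Cox5b, Cox6a1, Cox7c and Cox8a) and 1 lower (Cox6b2) at 4 h. All genes gave 18% and 15.1%. Leaving out any single library except clone a at 2 h ended the 4 h call of Cox5b. Cox6a1, the general form of subunit 6a, had 137, 139 and 135 CPM at 4 h, against 99.5, 104 and 100 CPM in untreated cells. These libraries were tight and did not overlap, with a log2 change of 0.43 ± 0.06 (edgeR adjusted p 0.000576). With the GC and length correction it was 0.10 (edgeR adjusted p 0.345). The complex then had 0 genes higher and 2 lower (Cox6b2 and Cox5a), against 17.9% and 16.6% of all genes. When the clone block was added it had 2 higher and 4 lower, against 28.1% and 27.8% of all genes. The Cox6a1 transcript has 58.8% GC. Cox7c, with 38.4% GC, had 32.9, 36.9 and 38.4 CPM at 4 h, against 28.6, 27.2 and 28.8 CPM in untreated cells (log2 change 0.36 ± 0.11, edgeR adjusted p 0.0242). Its corrected change was 0.37, with an adjusted p of 0.0534.

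Cox6b2, the form of subunit 6b known from testis, had 11, 10.4 and 9.13 CPM at 4 h, against 11.2, 17.1 and 16.7 CPM in untreated cells. The groups did not overlap, but clone a changed by only -0.02, against -0.71 in clone b and -0.87 in clone c. The fit gave -0.56 ± 0.17 (edgeR adjusted p 0.0284) and, with the GC and length correction, -0.74 (adjusted p 0.00293). Leaving out the untreated or 4 h library of clone b or c ended the call. Its general counterpart Cox6b1 was not called at 4 h (log2 change 0.00 ± 0.05, edgeR adjusted p 0.971). Ndufa4, a complex IV subunit despite its name, had 204, 246 and 206 CPM at 4 h, against 205, 210 and 176 CPM in untreated cells, and passed only with the clone block. Among the other structural subunits, Cox5a, which overlaps Gm26631, had a log2 change of -0.15 ± 0.07, Cox6c, which overlaps Vps13b, of 0.06 ± 0.08, Cox7a2 of -0.01 ± 0.07 and the Cox7a2l protein, which links complexes III and IV into supercomplexes, of -0.08 ± 0.06, and none passed with or without the block. With the GC and length correction Cox5a passed, at -0.21 (edgeR adjusted p 0.039).

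ATP synthase had 1 of 16 genes higher and 0 lower at 4 h, against 18% and 15.1% of all genes, with a median log2 change of 0.013. The gene called higher was Atp5d, the delta subunit of the central stalk, which overlaps Cbarp. It had 105, 118 and 114 CPM at 4 h, against 55.3, 76.8 and 87.3 CPM in untreated cells, with no overlap. The clones changed by 0.92, 0.62 and 0.39, and the fit gave 0.62 ± 0.14 (edgeR adjusted p 0.00641), or 0.39 with the GC and length correction (adjusted p 0.00514). The catalytic Atp5b had 2690, 3010 and 2760 CPM at 4 h, against 2590, 2660 and 2510 CPM in untreated cells (log2 change 0.12 ± 0.07, edgeR adjusted p 0.186). Atp5s, coupling factor B, had the lowest fitted change of any member, -0.69 ± 0.25, from 3.38, 2.54 and 1.90 CPM at 4 h, against 5.34, 3.70 and 3.53 CPM in untreated cells. It passed only with the clone block (edgeR adjusted p 0.0559 without and 0.00585 with it). So did Atp5c1, the gamma subunit that turns in the central stalk, with 367, 354 and 356 CPM at 4 h, against 407, 402 and 381 CPM in untreated cells (log2 change -0.14 ± 0.05, edgeR adjusted p 0.0556 without and 0.0133 with it). The 3 genes for subunit c, Atp5g1, Atp5g2 and Atp5g3, did not pass at 4 h with or without the block. Atp5g2 passed with the GC and length correction, at -0.62 against -0.12 without it (edgeR adjusted p 0.00645), and Atp5g1 passed as lower when clone a was left out in the blocked fit.

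**Figure D5:**
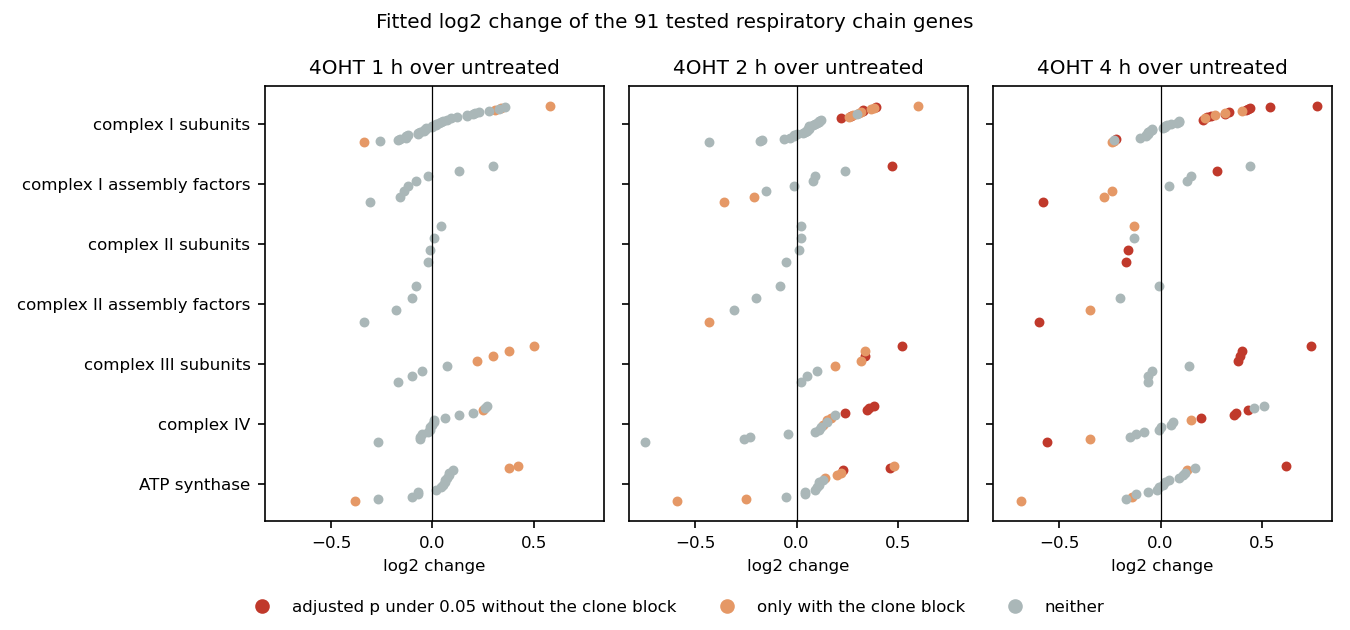
Fitted log2 change of the 91 tested members at 1, 2 and 4 h of 4OHT over untreated cells, 1 row of points per complex; red marks an edgeR adjusted p under 0.05 without the clone block, orange only with it, grey neither. At 4 h all 4 complex II subunits lie left of 0, and 4 of 8 complex III subunits are red and right of it.

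Between 4 h and 1 h of 4OHT, 3 members were higher and 1 lower, where all genes gave 10.8% and 8.74% (edgeR, no clone block). Those higher were Cox5b, Ndufaf6 and Ndufaf4, and the one lower was Cox6b2. With the clone block 15 were higher and 7 lower, where all genes gave 20% and 19.8%. The 7 included 3 complex II subunits, Sdha, Sdhc and Sdhd, with log2 changes of -0.14, -0.15 and -0.16. The log2 changes here set treated libraries against treated ones, but the untreated libraries still entered the scaling, the filter and the shared spread. Without clone b untreated, Cox5b and Ndufaf4 were no longer called. Without clone c untreated, Cox5b, Ndufaf6 and Cox6b2 were not. Leaving out clone a untreated ended none of these calls. The Spearman correlation with GC content was 0.09 over members. Taking the treated times together, 14 members changed, where all genes gave 27.4%, and 48 with the clone block, where all genes gave 56.8%.

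Other genes of the pathway were read from lists. No list was tested as a whole. Of 31 tested assembly factors outside the naming rule, 2 were higher and 4 lower at 4 h, against 18% and 15.1% of all genes. Timmdc1, which helps assemble the membrane arm of complex I, had 39.0, 54.4 and 48.6 CPM at 4 h, against 28.7, 27.1 and 26.8 CPM in untreated cells (log2 change 0.78 ± 0.13, edgeR adjusted p 0.00116). Uqcc2, a complex III assembly factor, had 44.5, 44.7 and 44.3 CPM, against 32.8, 33.9 and 36.9 CPM (log2 change 0.37 ± 0.07, edgeR adjusted p 0.0029, and 0.848 with the GC and length correction). Atpaf2, which chaperones the alpha subunit of ATP synthase, was lower by log2 -0.33 ± 0.10 (edgeR adjusted p 0.0227).

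Of 12 tested regulators of mitochondrial biogenesis, 5 were higher and 1 lower at 4 h, against 18% and 15.1% of all genes. Their median log2 change was 0.255, against -0.016 for all genes. Nrf1, whose binding letters are searched for above, had 170, 224 and 200 CPM at 4 h, against 139, 141 and 135 CPM in untreated cells (log2 change 0.52 ± 0.09, edgeR adjusted p 0.00225). Ppargc1b, a coactivator, had 12.8, 11.3 and 13.3 CPM at 4 h, against 6.60, 6.97 and 7.96 CPM (log2 change 0.80 ± 0.15, edgeR adjusted p 0.00265). Gabpb2, which encodes a beta subunit of GABP, was lower, with 92.0, 67.9 and 65.4 CPM at 4 h, against 130, 119 and 115 CPM (log2 change -0.69 ± 0.13, edgeR adjusted p 0.00254). In these 3 genes the groups did not overlap.

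Of 13 tricarboxylic acid cycle genes, 2 were higher and 0 lower at 4 h, against 18% and 15.1% of all genes. They were Mdh2, malate dehydrogenase (log2 change 0.22 ± 0.07, edgeR adjusted p 0.0282), and Cs, citrate synthase (0.19 ± 0.07, adjusted p 0.049). Of 4 genes for the ATP synthase inhibitor and adenine nucleotide translocators, 1 was higher, the inhibitor Atpif1, with 185, 182 and 178 CPM at 4 h, against 145, 155 and 150 CPM in untreated cells (log2 change 0.27 ± 0.06, edgeR adjusted p 0.00489). Cyc1, cytochrome c1 of complex III, missed the threshold (log2 change 0.21 ± 0.08, edgeR adjusted p 0.0501) and passed with the clone block (0.00209). The somatic cytochrome c gene Cycs had 9.22, 6.92 and 8.18 CPM at 4 h, against 10.1, 7.48 and 8.23 CPM in untreated cells.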

How the data were processed

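Raw read counts, as the authors deposited them, came as a single table with a row for each symbol, and all its library columns were used. The submitters' processing notes name STAR, featureCounts, DESeq and mm10; for versions, annotation and strand setting, the sources used here say nothing. Libraries matched samples by time and clone letter. Members and lists were chosen with earlier results of these data known. No pair of libraries of 1 group differed by as little as sampling noise: the lowest ratio of chi-square to its degrees of freedom was 18.5.

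Genes passing edgeR's filterByExpr (minimum count 10, minimum total 15; 14185 of 25897) were scaled by TMM and fitted with 1 term per group over all 12 libraries, with R 4.3.3, edgeR 4.0.16 and limma 3.58.1, and tested 2-sided with Benjamini-Hochberg adjustment over all of them at 0.05. SE is the absolute log2 change over the square root of F. CPM is TMM-scaled, and a length is the exon union in GENCODE M21. One count is 0.0318 to 0.0413 CPM before scaling. Clone letters pair libraries: r between the deviations of libraries of 1 clone was positive in 18 of 18 pairs, at 0.184 to 0.684, so clone was used as a block beside the unblocked fit. Alternatives were other scaling, filters, DESeq2 1.42.0, limma-voom, the 2 groups alone, each library or clone left out and, chosen after seeing the data, an offset for GC content and length (natural splines, 4 df each) with and without the block, and clone a left out with the block. Named were up to 8 rises and 8 falls per comparison, a panel by role, restricted isoforms, extremes of level and the 3 smallest p per list; Atp5s, Ndufaf7 and Cox6b1 were added after their values were seen. The scripts were tested on simulated data. The residual degrees of freedom were 8, or 6 with the block, and the biological coefficient of variation 0.163 or 0.0924.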

Additional observations from a re-analysis of the deposited data

Results flagged for a closer look

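For 4 members the change from untreated cells differed between 4 h and 1 h of 4OHT (edgeR, adjusted p under 0.05 without the clone block). Cox5b, a complex IV subunit, was higher by 0.23 on the log2 scale at 4 h (edgeR adjusted p 0.045). Ndufaf6, a complex I assembly factor, was higher by 0.31 (edgeR adjusted p 0.0462). Ndufaf4, another one, was higher by 0.27 (edgeR adjusted p 0.0395), with 47.4, 45.8 and 46.2 CPM at 4 h, against 39.3, 39.6 and 37.0 CPM at 1 h, and 44.9, 43.6 and 37.5 CPM untreated. Cox6b2, a testis form of a complex IV subunit, had a log2 difference of -0.55 (edgeR adjusted p 0.0455). All 4 passed with the clone block (edgeR adjusted p 0.00523, 0.0104, 0.0101 and 0.0117). With the GC and length correction Ndufaf4 and Cox6b2 passed (0.0204 and 0.0091), and Cox5b (0.182) and Ndufaf6 (0.064) did not. Each call was lost without any 1 of the 1 h libraries.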

How the results depend on the processing

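None of the calls (14 at 2 h, 26 at 4 h, 4 between 4 h and 1 h) reversed under the alternatives run. Members near 0 that were not called did change sign at 4 h: Sdhaf2 was 0.05 with the GC offset, against -0.01, and Uqcrh 0.01 without clone a, against -0.04. Under every alternative only Uqcrq at 4 h, of all these calls, stayed past the threshold. Counts are members higher and lower. With the replicate block they were 10 and 2 (1 h), 31 and 5 (2 h), 26 and 15 (4 h), 15 and 7 (4 h against 1 h), and 48 over time. DESeq2 gave 3 and 1, 24 and 1, 21 and 9, 7 and 4, and 31 over time (all genes 0.705% and 0.211%, 13.5% and 9.12%, 19.7% and 16.3%, 13.1% and 11%, and 37.2%). Limma-voom gave 1 lower at 2 h and 0 lower between 4 h and 1 h (all genes 7.75% and 9.07%). The 2 groups alone gave 3 and 1 at 2 h, 10 and 2 at 4 h, and 1 higher between 4 h and 1 h. No filter gave 9 higher at 2 h, 0 and 0 between 4 h and 1 h, and a median of 0.042 at 4 h. Over time, no filter gave 13 members, where all genes gave 18.7%. Shares of all genes at each time are not given for these fits, so their counts are not read as results about the members. The GC offset gave 1 lower at 2 h, 9 higher at 4 h, 1 and 5 between 4 h and 1 h (all genes 10.7% and 12%), and medians of -0.009 (4 h) and -0.026 (4 h against 1 h), so both medians turned sign; those of all genes were -0.02 and -0.037. With the block as well it gave 12 and 2, 35 and 7, 23 and 22, 6 and 16, and 55 over time (all genes 6.49% and 1.35%, 27.7% and 18.3%, 28.1% and 27.8%, 19.5% and 25.4%, and 64.2%), and medians of -0.013 and -0.026. Clone a left out, with the block, gave 9 and 4, 38 and 8, 30 and 17, 20 and 10, and 56 over time (all genes 7.76% and 3.79%, 25.5% and 25.2%, 29.8% and 29.4%, 24.7% and 25.2%, and 65.4%). Leaving out single libraries or clones gave 0 to 22 higher and 0 to 2 lower at 2 h, 2 to 19 and 0 to 6 at 4 h, 0 to 5 and 0 to 3 between 4 h and 1 h, 0 to 22 over time, and medians of 0.061 to 0.108 (2 h) and 0.014 to 0.043 (4 h); without clone b 2 and without clone c 4 were higher at 4 h, and 0 at 2 h without either. At 1 h it gave 0 in each case. Calls among all genes moved as well. Over time, 27.4% of all genes were called with every library, 31.2% without clone a, 4.75% without clone b and 0.189% without clone c. Leaving out single libraries gave 14.8% to 32.5% of all genes. At each time, shares of all genes are given above only for the fits without clone a or its untreated library. The other counts with libraries left out are therefore not read as results about the members. The cause of these shifts was not tested.

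With 3 clones a group, changes as small as those of Sdhc and Sdhd pass or miss the threshold with the library left out. Overlapping exons and an unknown strand setting limit 34 members, and genes listed at 0 have no level. One count is 0.0318 to 0.0413 CPM, so members with few counts, such as Cox8c, have no usable comparison at this depth.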
